A study of Mus musculus with 6 samples.

Results

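The genes that encode the inhibin alpha subunit (Inha), the inhibin and activin beta-A and beta-B subunits (Inhba and Inhbb) and anti-Mullerian hormone (Amh) were examined in mouse ovary. They were chosen by symbol, and all 4 were found among the 35415 genes of the count table and among the 16841 genes expressed highly enough to be tested. Whole ovaries were profiled by bulk RNA sequencing in 3 wild-type and 3 Rnf111+/- mice, all aged 3 months and all in estrus, with 1 library per mouse. The heterozygous mice carry 1 CRISPR-Cas9-edited copy of Rnf111. The product of this gene, Arkadia, is a ubiquitin ligase through which SMAD7 and other brakes on TGF-beta family signals are degraded, and the study edited it to model monoallelic RNF111 variants linked to premature ovarian insufficiency. Of the edited mouse lines that the study made, the one that was sequenced is not given in the sources used here.

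All 4 genes belong to the TGF-beta family and are made mainly by granulosa cells, the somatic cells that surround the oocyte. An alpha subunit joined to a beta subunit forms inhibin, which lowers the secretion of follicle-stimulating hormone (FSH) by the pituitary. Beta subunits joined to each other form activins (activin A from beta-A, activin B from beta-B), which signal through activin receptors to SMAD2 and SMAD3 and raise FSH secretion. The alpha and beta genes are FSH-responsive. AMH is made by small growing follicles, acts through its own receptor AMHR2 and restrains follicle recruitment.

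Library totals ranged from 38261449 to 39474515 counts, so depth differed little. Rnf111 itself was at 53.9 ± 0.477 CPM (counts per 1000000 of the library, with TMM factors applied; mean ± SD, n = 3) in wild-type and 44.6 ± 0.394 CPM in heterozygous libraries, a log2 fold change of -0.27 ± 0.07 (SE, edgeR adjusted p = 0.04). Wild-type replicate 3 stood apart from the other wild-type libraries. It held the oviduct transcripts Ovgp1 (oviductal glycoprotein) at 146.3 CPM and Foxj1 (a factor of ciliated cells) at 13.7 CPM, against 1.85 to 8.05 and 0.0522 to 1.69 CPM in the other 5 libraries. The other oviduct markers, Pax8 and Sox17, were at 0.511 and 9.22 CPM there, against 0.104 to 0.415 and 5.77 to 8.77 CPM elsewhere. Summed macrophage markers (6 of 6 in the table) were at 149.2 CPM in this library and at 87.9 to 120.1 CPM in the others. Of the 11 luteal markers listed, 6 were lower in this library than the mean of wild-type replicates 1 and 2, with a median log2 difference of -0.1. Akr1c18, Sfrp4 and Ptgfr were higher in this library, by log2 differences of 3.16, 2.03 and 2.57. Where this library decides a call or a sign named here, the value without it is given. Bulk levels also cannot tell apart fewer granulosa cells and less RNA per granulosa cell.

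Inhba was higher in heterozygous ovaries in all 3 libraries, whereas the values of Inha, Inhbb and Amh overlapped between the genotypes. Inhba, the beta-A gene, was at 472.6, 374.6 and 115.7 CPM in wild-type replicates 1, 2 and 3 and at 1105, 1336 and 889.5 CPM in heterozygous replicates 1, 2 and 3. The lowest heterozygous value lay above the highest wild-type value. The group means were 321 ± 184 and 1110 ± 223 CPM (SD, n = 3 each), a ratio of means of 3.46. Inhba was the only 1 of the 4 genes whose groups did not overlap, against 32% of all tested genes whose groups did not overlap (15.1% with heterozygous libraries above and 16.9% with them below). The log2 fold change was 1.79 ± 0.54 (SE), and it missed the threshold of edgeR's test (adjusted p = 0.114). The exact permutation test of its 6 values, two-sided, gave p = 0.1, the smallest that 3 against 3 allows. Without wild-type replicate 3, the lowest of the 6, the difference was smaller but passed (1.40 ± 0.21, adjusted p = 0.0146). It also passed in all 6 libraries with DESeq2 (adjusted p = 0.00498) and limma-voom (0.0334).

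Inha, which encodes the subunit that makes a dimer an inhibin, was at 2592, 2404 and 1147 CPM in wild-type replicates 1 to 3 and at 2810, 3563 and 2524 CPM in heterozygous replicates 1 to 3. The heterozygous libraries and wild-type replicates 1 and 2 shared a range, and wild-type replicate 3 lay below all of them. The log2 fold change was 0.53 ± 0.32 (SE, adjusted p = 0.367), and without wild-type replicate 3 it was 0.26 ± 0.15 (adjusted p = 0.303).

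Inhbb, the beta-B gene, was at 1360, 1122 and 313.8 CPM in wild-type and at 647, 1300.4 and 531.2 CPM in heterozygous replicates 1 to 3. The values of both genotypes were interleaved, with heterozygous replicate 2 as high as the higher wild-type libraries and the other heterozygous libraries between those and wild-type replicate 3. The log2 fold change was -0.17 ± 0.65 (SE, adjusted p = 0.901). Its sign was not stable, at 0.21 without wild-type replicate 1 and 0.06 without heterozygous replicate 3. Without wild-type replicate 3 it was -0.58 ± 0.49 (adjusted p = 0.531).

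Amh was at 418.2, 450.4 and 263.6 CPM in wild-type and at 554.7, 295.5 and 297.2 CPM in heterozygous replicates 1 to 3. Heterozygous replicate 1 was the highest of the 6 libraries, and the other heterozygous libraries lay between wild-type replicates 3 and 1. The log2 fold change was 0.02 ± 0.32 (SE, adjusted p = 0.981). It turned to -0.17 without wild-type replicate 3 and to -0.35 without heterozygous replicate 1. By edgeR's test, 0 of the 4 genes were called, against 9.64% of all tested genes. Of the 4, 1 (Inhba) had an unadjusted p under 0.05, as did 25.5% of all tested genes. The same 1 was called by DESeq2, which called 13.8% of genes, and by limma-voom, which called 9.46%.

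**Figure D1:**
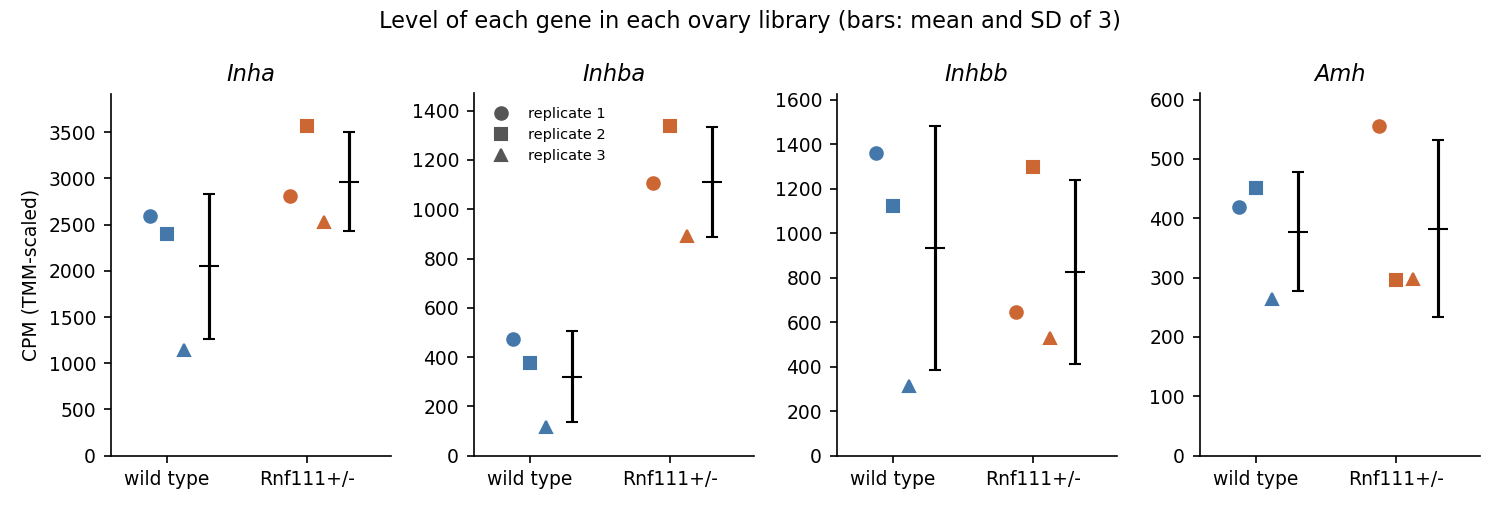
Level of Inha, Inhba, Inhbb and Amh in each library, in CPM on axes that start at 0, with the mean and SD of 3 libraries beside the points. The 3 heterozygous values of Inhba sit above its 3 wild-type values, and wild-type replicate 3 is the lowest library for each gene.

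**Figure D2:**
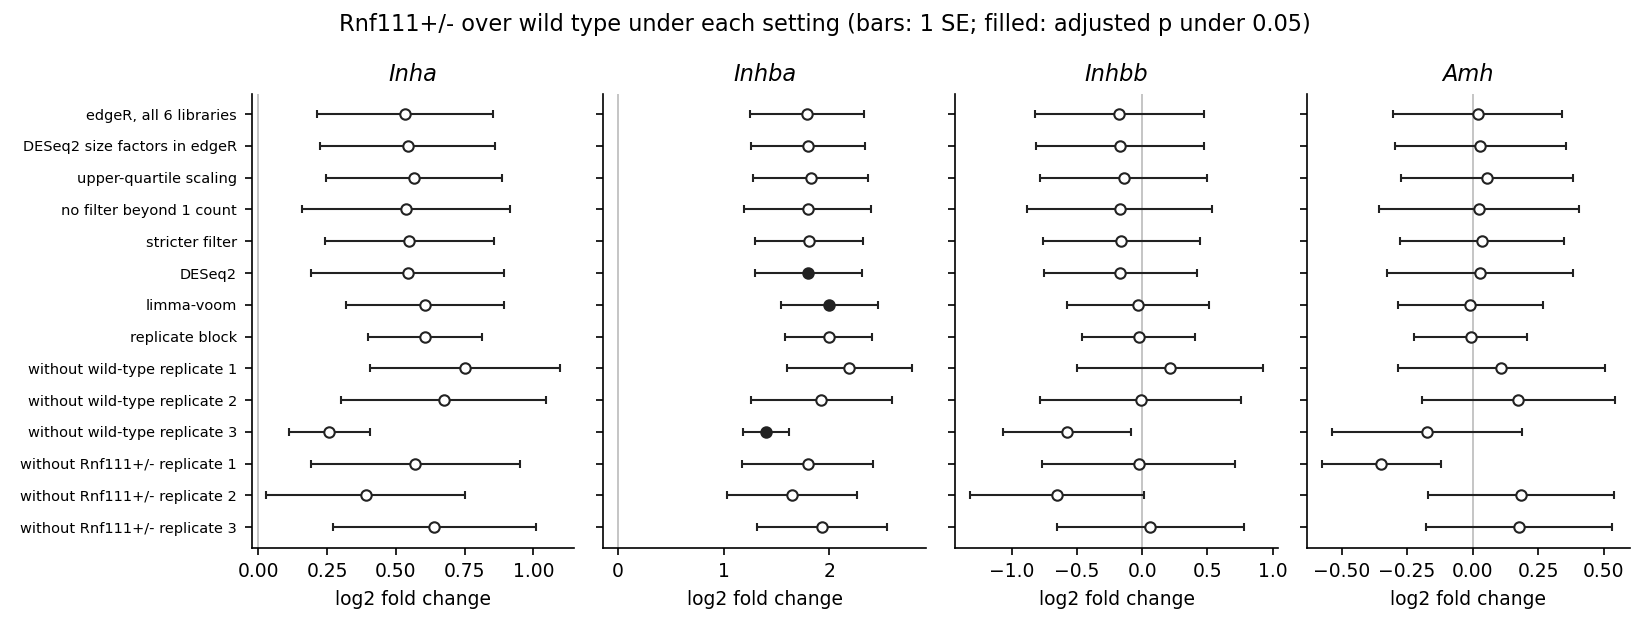
Log2 fold change of the 4 genes with 1 SE under each of 14 settings, with filled points for adjusted p under 0.05. Inhba lies between 1.40 and 2.19 in all of them and is filled with DESeq2, limma-voom and without wild-type replicate 3, whereas Inhbb and Amh lie on both sides of 0.

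The spread within a genotype was wide for these genes and differed among them. In wild-type libraries the SD of log2 CPM was 0.65 for Inha, 1.09 for Inhba, 1.15 for Inhbb and 0.42 for Amh, against a median of 0.18 over all tested genes. Between 79.1% (Amh) and 97.6% (Inhbb) of tested genes had a smaller wild-type SD. In heterozygous libraries the SD was 0.25 for Inha, 0.29 for Inhba, 0.68 for Inhbb and 0.52 for Amh, against a median of 0.14. Among the 2421 genes that averaged 100 CPM or more, 99.9% had a smaller heterozygous SD than Inhbb and 99.6% a smaller one than Amh. The high library was not the same for those genes, being heterozygous replicate 2 for Inhbb and replicate 1 for Amh.

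Much of the wild-type spread came from 1 library. On the log2 scale, wild-type replicate 3 lay below the mean of wild-type replicates 1 and 2 by a difference of -1.12 for Inha, -1.86 for Inhba, -1.98 for Inhbb and -0.72 for Amh. The median difference over all tested genes was -0.002, and only 0.56% of them lay further down than Inhbb and 6.05% further down than Amh. Of the 16 granulosa markers listed, 14 were also lower in that library, with a median difference of -0.68. The part of the oviduct, macrophage and luteal transcripts of that library in these values was not tested.

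The balance between the beta subunits separated the genotypes. In wild-type libraries, Inhba had 0.347, 0.334 and 0.369 counts for each Inhbb count (replicates 1, 2 and 3). In heterozygous libraries it had 1.71, 1.03 and 1.67. The highest wild-type ratio was 1.104 times the lowest, although over the same libraries the highest level was 4.09 times the lowest for Inhba and 4.33 times for Inhbb. All 3 heterozygous ratios were higher, by 2.03 ± 0.24 (SE) on the log2 scale, which is 4.10-fold. An exact two-sided permutation test gave p = 0.1, the smallest possible, or 0.2 after Benjamini-Hochberg adjustment over the 6 pairs of genes. The difference stayed between 1.91 and 2.27 with any 1 library left out, and was 2.07 without wild-type replicate 3. The ratio of Inhbb to any other tested gene with counts in every library did not overlap between the genotypes for 2.25% of genes. The ratio of Inhba to any other such gene did not overlap for 89.4%, so the lack of overlap alone is at the background for Inhba. No gene length enters the log2 difference between the genotypes, because each gene is compared with itself.

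Expressed as a share of all beta subunit counts, Inhba took 25.8% in wild-type replicate 1 (Wilson 95% interval 25.5 to 26.1%), 25.0% in replicate 2 (24.7 to 25.4%) and 26.9% in replicate 3 (26.3 to 27.6%). It took 63.1% (62.7 to 63.4%), 50.7% (50.4 to 51.0%) and 62.6% (62.2 to 63.0%) in heterozygous replicates 1 to 3. The intervals cover counting error only. The 3 wild-type shares were close to each other, and the lowest heterozygous share lay far above the highest of them.

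**Figure D3:**
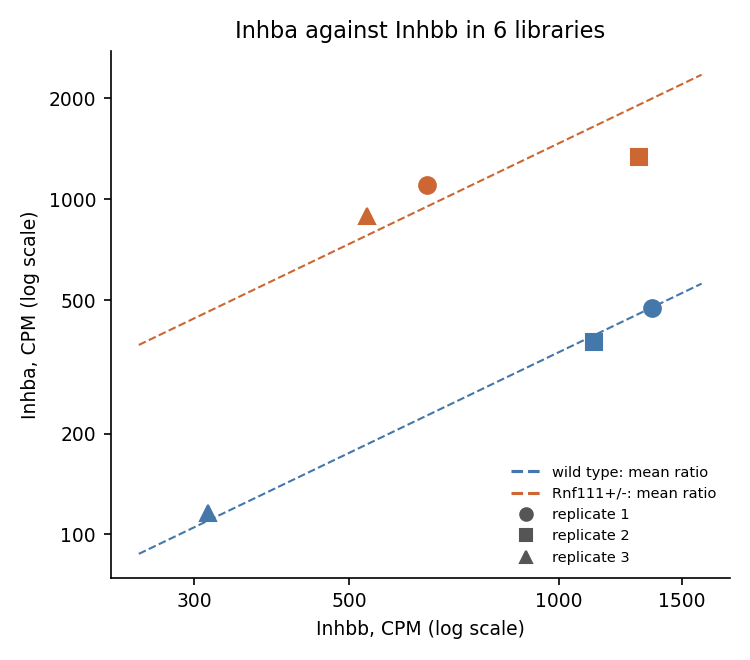
Inhba against Inhbb in the 6 libraries, both in CPM on log scales, with blue for wild type, orange for Rnf111+/- and dashed lines at the mean ratio of each genotype. The wild-type libraries lie along 1 line from wild-type replicate 3 at the bottom to replicate 1 at the top, and the heterozygous libraries lie above it.

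The other ratios that involve Inhba also did not overlap, but they share its counts and are not separate observations. The ratio of Inhba to any other tested gene with counts in every library did not overlap for 89.4% of genes, so this count is at the background. Inha had 5.48, 6.42 and 9.92 counts for each Inhba count in wild-type replicates 1 to 3, and 2.54, 2.67 and 2.84 in heterozygous replicates 1 to 3. The heterozygous libraries were close together and all below the wild-type libraries, a log2 difference of -1.39 ± 0.26 (SE, exact permutation p = 0.1, adjusted 0.2), or -1.15 without wild-type replicate 3. The Inhba to Amh ratio was 1.13, 0.832 and 0.439 in wild-type and 1.99, 4.52 and 2.99 in heterozygous libraries, a log2 difference of 2.01 ± 0.53 (exact permutation p = 0.1, adjusted 0.2).

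The 3 ratios without Inhba overlapped. The Inha to Inhbb ratio was 1.91, 2.14 and 3.66 in wild-type and 4.34, 2.74 and 4.75 in heterozygous libraries (log2 difference 0.64 ± 0.38, exact permutation p = 0.2, adjusted 0.3). For Inha to Amh it was 6.20, 5.34 and 4.35 against 5.07, 12.1 and 8.49 (0.62 ± 0.39, exact permutation p = 0.3, adjusted 0.36). The Inhbb to Amh ratio differed by -0.02 ± 0.71 (exact permutation p = 0.9), with the widest spread of the 6 pairs in both genotypes.

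**Figure D4:**
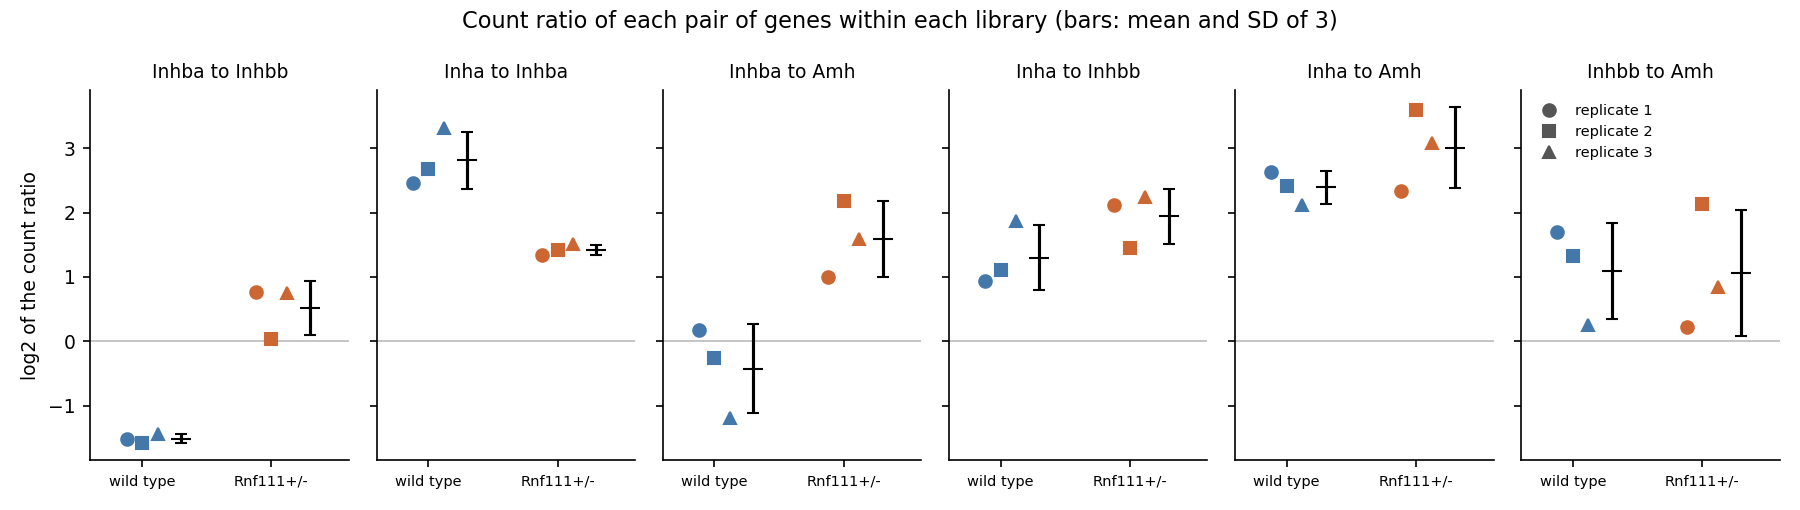
Log2 of the count ratio of each pair of the 4 genes in each library, with the mean and SD of 3 libraries beside the points. The Inhba to Inhbb ratio is tight in wild type (SD 0.07), and the genotypes do not overlap in the 3 panels with Inhba.

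Levels of different genes can be compared only per length. With GENCODE M21 exon lengths, Inha (1475 bases) was the most abundant of the 4 in every library, at 1388 ± 533 CPM per kilobase in wild-type and 2011 ± 364 in heterozygous ovaries (SD, n = 3 each). By CPM per kilobase it ranked 4, 4 and 18 among the 15673 tested genes with a length in wild-type replicates 1 to 3, and 3, 2 and 5 in heterozygous replicates 1 to 3. Inhbb (219 ± 129 and 194 ± 97.5 CPM per kilobase) and Amh (226 ± 59.8 and 229 ± 89.3) were next to each other and did not differ beyond their spread. Inhba was lowest in wild type at 50.2 ± 28.9 and reached 174 ± 34.9 CPM per kilobase in heterozygous ovaries, where it overlapped Inhbb and Amh. These Inhba values use all of its annotated exons (6390 bases). With the shorter annotated transcript of 1529 bases they would be 209.9 ± 120.6 and 726 ± 146 CPM per kilobase, and gene counts do not show which transcript was present.

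The excess of alpha over beta subunit transcripts depended on that length. With all exons, Inha made up 84.9 ± 4.05% of the 3 subunit transcripts per length in wild-type and 84.8 ± 2.16% in heterozygous ovaries, and the share of Inhba was 2.84 ± 0.693% and 7.31 ± 0.385% without overlap. With the short Inhba transcript, the share of Inha was 77.9 ± 5.33% and 68.8 ± 1.81%, and the groups did not overlap. In both cases Inha exceeded the summed beta subunits in every library, by 4.46 to 8.47-fold with all exons and by 2.05 to 5.21-fold with the short transcript. All of these shares include the Inhba counts, so they are not observations separate from its level. Against any other tested gene with counts in every library, the Inhba ratio did not overlap for 89.4% of genes.

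The annotated promoters of the beta subunit genes are shown because their transcripts shifted against each other. RefSeq windows (build GRCm38.p6, whereas the counts were made on GRCm39) matched 3 of the 4 genes by symbol. That of Inha lay inside the GENCODE transcript and was not used, and Amh had none. Each sequence holds the 250 bases before the annotated start, 5′ to 3′ on the gene's own strand, with motif matches in capitals.
Inhba (chr13:16011601-16011850, plus strand): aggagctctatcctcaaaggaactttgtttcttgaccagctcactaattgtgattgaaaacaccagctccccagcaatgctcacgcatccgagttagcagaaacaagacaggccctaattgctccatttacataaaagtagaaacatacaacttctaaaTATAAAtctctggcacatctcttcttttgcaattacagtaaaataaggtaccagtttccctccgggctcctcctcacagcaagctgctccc
Inhbb (chr1:119422249-119422498, minus strand): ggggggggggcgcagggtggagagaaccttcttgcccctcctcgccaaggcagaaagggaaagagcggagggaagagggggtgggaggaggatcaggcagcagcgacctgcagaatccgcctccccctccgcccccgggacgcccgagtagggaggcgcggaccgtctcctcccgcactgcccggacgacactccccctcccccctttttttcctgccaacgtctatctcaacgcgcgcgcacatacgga
The Inhba window was 43.2% and the Inhbb window 68% G or C. Searched on both strands were the cAMP response element TGACGTCA (in 1.55% of 32851 promoter windows of this length), its variant TGCGTCA (1.75%), the AP-1 site TGACTCA (4.46%), the NR5A receptor site AAGGTCA (4.08%), the SMAD elements GTCTAGAC (0.167%) and CAGAC (42.2%), and the TATA box TATAAA (12.4%). The only match was TATAAA in the Inhba window, starting 91 bases before the annotated start. A match or a missing match says only whether these letters are in this window, and what the matched letters do was not tested.

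The partners of the 4 hormones were read from a list of 26 genes, of which 24 were expressed highly enough to be tested. By edgeR's test 2 rose (against 3.9% of all tested genes), 2 fell (against 5.74%) and 20 did not pass. The median log2 fold change was 0.07, against -0.008 over all tested genes. Without wild-type replicate 3 the count was 4 rises and 3 falls, in a fit that called 7.37% of all genes as higher and 8.82% as lower. The remaining beta subunit genes were absent or nearly so, with 0 counts of Inhbc in any library and 1 count of Inhbe in each of 2 heterozygous libraries.

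Among the activin antagonists, Fst encodes follistatin, which binds and neutralizes activin. It was at 273.1, 214.3 and 102.4 CPM in wild-type and 229.9, 341.8 and 269.3 CPM in heterozygous replicates 1 to 3, overlapping (log2 0.51 ± 0.37, adjusted p = 0.463). For each Fst count there were 1.73, 1.75 and 1.13 Inhba counts in wild-type and 4.80, 3.91 and 3.30 in heterozygous libraries, without overlap. For Inhbb the counts per Fst count were 4.98, 5.24 and 3.06 against 2.81, 3.80 and 1.97, lower on average in heterozygous libraries and overlapping. Both ratios were chosen after their values were seen and were not tested. Against any other tested gene with counts in every library, the Inhba ratio did not overlap for 89.4% of genes. Its lack of overlap against Fst is thus at the background. Fstl3, a relative of follistatin, was at 13.7 ± 5.22 CPM against 6.90 ± 1.13 (log2 -0.98 ± 0.27, adjusted p = 0.0542). Its groups did not overlap, and it passed with DESeq2 (adjusted p = 0.00317), without a filter (0.0374) and without wild-type replicate 3 (0.0372).

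Of the receptors for activins and AMH in the list, Acvr1 was the only 1 called. The activin type II receptor genes Acvr2a (log2 0.18 ± 0.09, adjusted p = 0.231) and Acvr2b (0.34 ± 0.11, adjusted p = 0.101) and the type I receptor gene Acvr1b (0.08 ± 0.13, adjusted p = 0.744) did not pass. The AMH receptor gene Amhr2 was at 183.8 ± 3.70 CPM in wild-type and 192 ± 11.3 in heterozygous ovaries (0.06 ± 0.07, adjusted p = 0.615). In wild-type replicate 3, where Amh was low, Amhr2 was at 179.5 CPM, close to the 186.3 and 185.5 CPM of wild-type replicates 1 and 2. Acvr1, a type I receptor that serves AMH and BMPs, fell from 75.5 ± 13.9 to 47.5 ± 2.58 CPM (-0.67 ± 0.13, adjusted p = 0.0152). Its call was lost without heterozygous replicate 1 (adjusted p = 0.053), 2 (0.0803) or 3 (0.0707). The inhibin coreceptor gene Tgfbr3 (betaglycan) was at -0.10 ± 0.09 (adjusted p = 0.548).

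Of the SMADs that carry activin signals, Smad2 did not pass (0.07 ± 0.11, adjusted p = 0.739). Smad3 rose from 106.1 ± 4.33 to 140.1 ± 11.5 CPM (0.40 ± 0.08, adjusted p = 0.0169). The call of Smad3 was lost without wild-type replicate 1 (0.0612) and without heterozygous replicate 2 (0.0675). Smad7, an inhibitory SMAD and a protein target of Arkadia, rose by 0.44 ± 0.11 (adjusted p = 0.0398). Its call was lost without wild-type replicates 1 or 2, without heterozygous replicates 2 or 3 (adjusted p from 0.0714 to 0.141) and with limma-voom (0.0501). Pcsk5, a convertase of the family that cleaves precursors of TGF-beta family hormones, fell from 148.8 ± 43.1 to 51.5 ± 7.17 CPM (-1.53 ± 0.22, adjusted p = 0.00967) and stayed called under each of the 13 alternatives. Among genes that did not pass, Bmpr1b (a BMP receptor gene, 1.27 ± 0.31, adjusted p = 0.0602), Tgfbr3l (0.62 ± 0.18, 0.0643) and Smad4 (0.25 ± 0.07, 0.0619) had groups that did not overlap, and were named after their values were seen. The convertase gene Pcsk6 (-0.28 ± 0.09, 0.102), also named after its values were seen, and Fstl3, Acvr2a and Acvr2b did not overlap either. Groups did not overlap for 32% of all tested genes. Bmpr1b passed with DESeq2 (adjusted p = 0.00603), limma-voom (0.0231), the stricter filter (0.0441) and without wild-type replicate 3 (0.000162). Tgfbr3l passed with DESeq2 (0.011), without a filter (0.0343), with the replicate block (0.0351) and without wild-type replicate 3 (0.0479). Smad4 passed with DESeq2 (0.0315), upper-quartile scaling (0.0381) and the stricter filter (0.0446). Furin, the best known convertase of these precursors, was at 182.3 ± 37.5 and 182.5 ± 17.3 CPM.

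**Figure D5:**
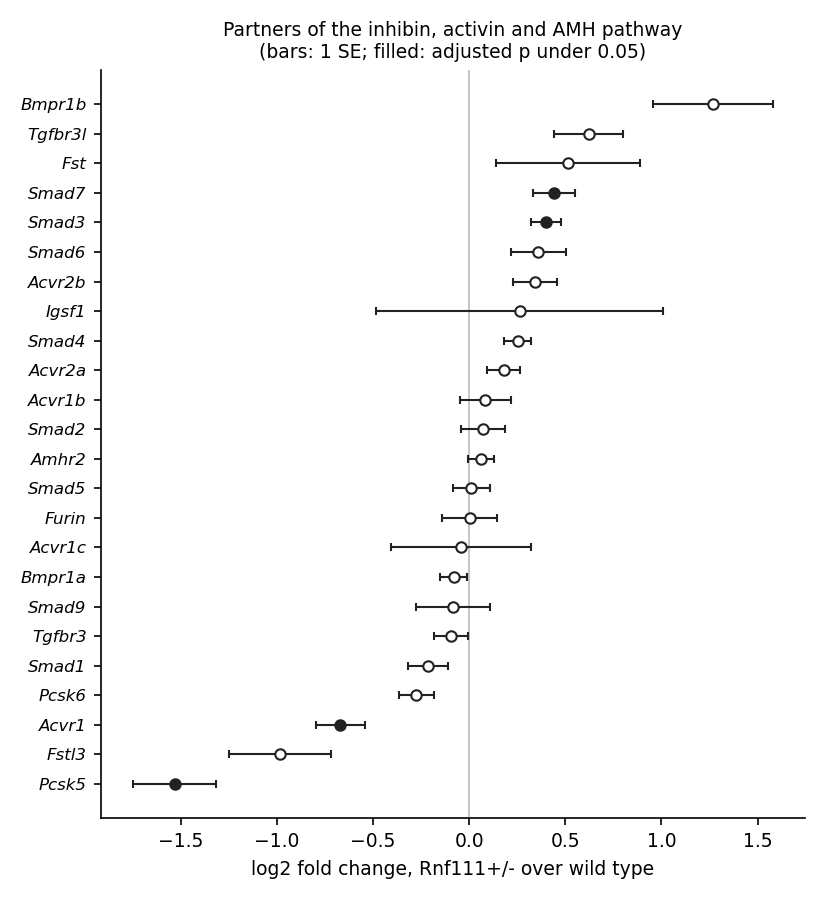
Log2 fold change of each of the 24 tested partner genes, Rnf111+/- over wild type, with bars of 1 SE and filled points for adjusted p under 0.05 by edgeR. Smad3 and Smad7 are filled to the right of 0, Acvr1 and Pcsk5 to the left.

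Granulosa markers, from a list chosen with earlier results known, were present in every library. Their summed level was 3006 to 5167 CPM in wild-type and 6111 to 7565 CPM in heterozygous libraries, and by edgeR's test 4 of 16 rose (Cyp19a1, Nr0b1, Greb1 and Bex4) and 12 did not pass, against 3.9% of all tested genes that rose. The number that rose was 6 without wild-type replicate 3 (7.37% of all genes rose in that fit) and 2 without heterozygous replicate 2. The list had 14 of 16 members above 0 and a median of 0.56 on the log2 scale, against -0.008 over all tested genes. Both values include wild-type replicate 3, where 14 of the 16 were below the mean of wild-type replicates 1 and 2. Without that library, Hsd17b1 turned to -0.08 and Dhh to -0.10, and the others kept their sign. The list median was not computed without it. Foxl2, a transcription factor of granulosa cells, was at 269.9 ± 74.4 against 228.9 ± 39.7 CPM (-0.24 ± 0.22, adjusted p = 0.566). The FSH receptor gene Fshr was at 21.1 ± 7.75 against 44.6 ± 6.31 CPM (1.08 ± 0.29, adjusted p = 0.068). It passed with DESeq2 (adjusted p = 0.000238), limma-voom (0.0316) and without wild-type replicate 3 (0.81 ± 0.12, 0.00102). Cyp19a1, the aromatase gene of large follicles, rose from 9.80 ± 2.24 to 49.8 ± 22.4 CPM (2.35 ± 0.39, adjusted p = 0.0188). That call was lost in 4 of the 6 fits without 1 library, namely without wild-type replicate 1 (adjusted p = 0.0567), 2 (0.0654) or 3 (0.0725) or heterozygous replicate 2 (0.0725). Without a filter it was lost too (0.0698). The luteinizing hormone receptor gene Lhcgr was at 300.3 ± 129.3 against 179.2 ± 92.9 CPM (-0.74 ± 0.56, adjusted p = 0.48).

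Summed marker transcripts of some other cell types also differed in level between the genotypes. These lists too were chosen with earlier results known, so the shares called are descriptions. Summed oocyte markers (12 genes) were at 198.9 to 218.6 CPM in wild-type and 274.9 to 369 in heterozygous libraries, and summed stromal markers (6 genes) at 3325 to 3907 against 2009 to 2392. Summed theca and interstitial markers (9 genes) were at 4072 to 4517 against 2784 to 3921 CPM, but the members did not move together. By edgeR's test 1 rose (against 3.9% of all tested genes) and 3 fell (Fdx1, Srd5a1 and Mgarp, against 5.74%). The 1 that rose was Cyp17a1, from 2.82 ± 1.53 to 196.9 ± 54.1 CPM (6.13 ± 0.45, adjusted p = 0.00173). Of the 9, 5 were above 0 on the log2 scale. Without heterozygous replicate 2, 1 rose and 2 fell. Summed luteal markers overlapped (13810 to 16240 against 13610 to 18280 CPM), and 5 of 11 fell (Star, Hsd3b1, Parm1, Fdxr and Cdkn1b), against 5.74% of all tested genes. Without wild-type replicate 3, 5 fell and 3 rose (Akr1c18, Sfrp4 and Ptgfr), and without heterozygous replicate 2, 3 fell. Akr1c18, which inactivates progesterone, was at 86.1, 66.7 and 676.4 CPM in wild-type replicates 1 to 3 and at 2646, 1981 and 2632 CPM in heterozygous replicates 1 to 3, without overlap (3.13 ± 1.06, adjusted p = 0.153). It passed with DESeq2 (0.0253), limma-voom (0.0178) and without wild-type replicate 3 (4.99 ± 0.21, adjusted p = 6.9e-05), and was named after its values were seen. The part of these cell types in the hormone gene levels was not tested.

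Genes with the most similar profile over the 6 libraries were found by Pearson's r of log2 CPM among 10433 others that averaged 10 CPM or more. For Inha they were Pan2, Map3k4, Pspc1, Dis3l2 and Sox12 (r from 0.9911 to 0.9947). For Inhba they were Elk1, Car14, Rack1, Cd320 and Fam78a (0.9942 to 0.9985). Of these, Car14, a carbonic anhydrase gene, had a wide range like Inhba itself, at 28.9 to 67.2 CPM in wild-type and 115.3 to 149.1 in heterozygous libraries. The others had narrower ranges, such as Elk1 at 27.5 to 39.5 CPM and Rack1 at 1153 to 1386 CPM over all 6 libraries. For Inhbb they were Dbf4, Fars2, Wdr59, Piga and Slc30a9 (0.9821 to 0.9931). For Amh they included Parl, Jag2, Anapc16 and Dus1l (0.978 to 0.9869). All were picked from 10433 genes for the highest r, so a high r follows from the choice. No gene named here stood in more than 1 of these lists.

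Among the members themselves, r was 0.935 between Inha and Inhba, 0.774 between Inha and Inhbb and 0.503 between Inhba and Inhbb. With Amh it was 0.310 to 0.398. By order of r among the 10433 other genes, Inhba stood at 196 and Inhbb at 1168 for Inha. For Inhba, Inha stood at 289 and Inhbb at 2841. These are descriptions over 6 libraries that share 2 genotypes and the low wild-type replicate 3. Obsl1, the neighbour of Inha on the opposite strand, was looked at after its values were seen. It was at 614.1, 585.8 and 377.7 CPM in wild-type and at 576.5, 724.3 and 552.2 CPM in heterozygous replicates 1 to 3, with r of 0.976 with Inha. Its log2 fold change was 0.23 ± 0.20 (adjusted p = 0.525). The neighbours of Amh showed a narrower range, with Sf3a2 at 82.5 to 102.5 CPM over all 6 libraries.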

How the data were processed

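Ovary RNA of 6 mice was sequenced, and the authors deposited 1 table of raw read counts per gene symbol. Per the submitters' processing notes, fastp (0.20.1), HISAT2 (2.1.0), HTSeq (0.11.2), DESeq2 (1.38.3) and build GRCm39 were used. For the annotation and the strand setting, the sources used here give nothing. In GENCODE M21 (GRCm38), used for lengths and neighbours, 2 genes overlap Inhba on the opposite strand (B230303A05Rik and Gm48444), and how reads shared with them were counted is not known. Genotypes came from the labels, and 0 columns lacked a sample.

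Counts were analysed with edgeR (4.0.16, R 4.3.3): filterByExpr (minimum count 10, total 15), TMM scaling, a robust quasi-likelihood test with genotype as its only term, and Benjamini-Hochberg adjustment over 16841 genes, called under 0.05. Each adjusted p is from edgeR unless DESeq2 (1.42.0) or limma-voom (3.58.1) is named. SE is the absolute log2 fold change over the square root of F. Ratios use raw counts. Log2 CPM used a prior count of 2. Scripts were tested on simulated data. Replicates were not duplicates (closest pair, chi-square 12.5 per degree of freedom). The labels name separate mice. Alternatives were other scalings, filters, tools, a block and leaving out each library. The stricter filter asked for 1 CPM in 3 libraries and 50 counts. The 4 genes and all lists were chosen with earlier results of these data known. Named by rule were the 4, fixed partners and others that passed, and the 5 of most similar profile for each, of which 1 is not reported here. Other genes named are marked as seen first or as markers.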

Additional observations from a re-analysis of the deposited data

How the results depend on the processing

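With single libraries left out, the log2 fold change ranged from 0.26 to 0.75 for Inha, from 1.40 to 2.19 for Inhba, from -0.65 to 0.21 for Inhbb and from -0.35 to 0.19 for Amh. Inhba, at 1.79 with all libraries, passed without wild-type replicate 3, with DESeq2 (1.80) and with limma-voom (2.001), and its adjusted p over the 13 alternatives ranged from 0.00498 to 0.269. Amh turned to -0.0088 with limma-voom. The difference in the Inhbb to Amh log2 ratio ranged from -0.56 to 0.40, and the other 5 ratios kept their direction, with Inhba to Inhbb at 1.91 to 2.27 and Inha to Inhba at -1.57 to -1.15. Ranges were 0.46 to 0.93 for Inha to Inhbb, 0.32 to 0.95 for Inha to Amh and 1.63 to 2.31 for Inhba to Amh.

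Genes called numbered 1623 with all libraries, 2543 with DESeq2, and from 530 to 2795 with 1 library left out: wild-type replicate 1 (865), 2 (826) or 3 (2795), or heterozygous replicate 1 (859), 2 (530) or 3 (557). Partner genes called numbered 4 with all libraries, 8 with DESeq2, and from 1 to 7 with 1 library left out: wild-type replicate 1 (2), 2 (3) or 3 (7), or heterozygous replicate 1 (3), 2 (1) or 3 (2). The cause was not tested.

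Replicate numbers did not pair the samples: deviations of libraries with the same number correlated at 0.012, 0.006 and 0.1, and wild-type replicates 1 and 2 each correlated best with another number. With the replicate number as a block, 1626 genes and 5 partner genes were called, Inhba was at 1.99 (adjusted p = 0.0878), Amh at -0.0072, and the Inhba to Inhbb difference at 2.03. The fewest counts of any of the 4 genes in a library were 4529 (Inhba in wild-type replicate 3), so counting error is small beside the spread between libraries.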
